A study of Mus musculus with 6 samples.

Results

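The genes described here encode the subunits of the constitutive proteasome. They were taken as the rows of the counts table whose symbol starts with Psma, Psmb, Psmc or Psmd and a number, without the immunoproteasome genes Psmb8, Psmb9 and Psmb10. This rule gave 37 of the 24062 genes in the table, and 36 of them had enough counts to be tested. Of the 37, 31 encode subunits of the 20S core or the 19S regulatory particle and 3 (Psmd5, Psmd9 and Psmd10) encode chaperones that assemble the base of that particle. The other 3 match the rule by name and are no constitutive subunits: Psma8 encodes an alpha subunit of the testis, Psmb11 a beta subunit of the thymus, and Psmc3ip a factor of meiotic recombination.

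RNA was sequenced from mouse embryonic fibroblasts, connective tissue cells grown from C57BL/6 embryos. One group had p27, the product of Cdkn1b, overexpressed by lentivirus (p27 OE), while the second group is labelled EV control, letters that the labels leave unexplained. Each group had 3 libraries, taken 4 days after overexpression began, at which time the labels describe the p27 OE cells as non-senescent. The labels name neither the promoter of the vector nor whether libraries of a group came from separate cultures, so p-values measure the spread between these libraries, which may be technical. The titles of the EV control libraries alone carry a dataset number, 10, and the labels do not state whether both groups were grown and sequenced together. A difference in handling between the groups, if there was one, cannot be told apart from p27 overexpression.

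The proteasome is the protease that removes most proteins tagged with ubiquitin. Its core is a barrel of stacked alpha and beta rings with the active sites inside. The regulatory particle that caps it has a base, whose ATPases unfold the substrate, and a lid, which removes the ubiquitin chain. Cells tend to make the subunits in coordination, and the transcription factor Nfe2l1 raises their genes when proteasome activity is short. p27 is itself a substrate: it is tagged by a ligase that contains Skp2 and degraded by the proteasome.

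Total counts ran from 34920728 to 52098220 per library, and the least counted of the 31 subunit genes had at least 2510 counts in each library. Normalised read counts (CPM, on library sizes scaled by TMM) are listed below in the order of the library numbers 1, 2 and 3. Cdkn1b, the overexpressed gene, read 52.2, 49.9 and 51.2 CPM across the EV control libraries, against 419, 978 and 460.0 CPM across the p27 OE libraries, with no overlap. Its log2 fold change was 3.60 ± 0.35 (SE; edgeR adjusted p 0.180, 0.00105 without p27 OE 2 and 0.0873 when paired). It was called by DESeq2 (adjusted p 3.88e-27, and 5.99e-16 when paired) and by paired limma-voom (2.86e-05), while limma-voom without pairing gave 0.0847. Along the first principal component both libraries numbered 1 lay away from the remaining 4, a component with 58.9% of the variance. The fibroblast genes Col1a1 and Col1a2 were at 22733 to 26723 CPM and 18364 to 20592 CPM, and the 9 fibroblast markers summed to 54088 to 59137 CPM in EV control and 58082 to 59976 CPM in p27 OE. The collagens dominate that sum, and the markers differed in direction. Pdgfra read 304, 144 and 132 CPM across the EV control libraries, against 233, 106 and 84.9 CPM across the p27 OE libraries. It was lower in p27 OE within each pair, as were Col3a1, Lum and Vim. Thy1 was higher within each pair, with 539, 817 and 809 CPM in EV control and 597, 943 and 913 CPM in p27 OE. Col1a1 was also higher in each, while Col1a2, Pdgfrb and Dcn went in different directions in different pairs. Pdgfra, Lum and Dcn were highest in the library numbered 1 of both groups, Lum with 122 and 101 CPM there and 24.5 to 41.9 CPM elsewhere. Markers of macrophages (9 genes) summed to 52.2 to 64.9 and 51.1 to 87.1 CPM, of epithelium (6) to 10.6 to 12.1 and 9.41 to 9.69 CPM, of endothelium (5) to 2.32 to 4.04 and 3.15 to 3.78 CPM, and of neural cells (5) to 33.9 to 53.8 and 53.5 to 68.7 CPM, of which Tubb3 made up most and Elavl3 was at 0 in the 6 libraries. The part of these markers in the results below was not tested. In bulk RNA, fewer cells of a type and less RNA per cell cannot be told apart.

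No proteasome gene passed the test for a difference between p27 OE and EV control, with or without pairing of the libraries; 3 other paired settings called 1 or 2 genes, given below with Psmb4, Psmb1 and Psmd8. With edgeR's quasi-likelihood test without pairing, 0 of the 36 genes had an adjusted p under 0.05, where 0% of the 14090 tested genes did. DESeq2 called 0 of the 36, against 0.671% of the 13265 genes it gave an adjusted p, and limma-voom called 0. At an unadjusted p under 0.05, edgeR gave 1 member, Psmb1, against 7.22% of all tested genes. Same-numbered libraries of the groups deviated together, though for numbers 2 and 3 other pairings correlated about as well. A second edgeR fit paired the libraries by number. It called 0 of the 36 where 7.43% of tested genes were called, and paired DESeq2 called 0, where 6.82% of 12177 genes were called, as did paired limma-voom. Unadjusted, it gave 5 members, Psmb1, Psmb4, Psmb6 and Psma5 lower and Psmd8 higher, or 13.9% of 36, against 23.9% of tested genes.

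The fitted differences were small, and their intervals were narrow. Without pairing, the log2 fold change (p27 OE over EV control) of the 31 subunit genes ran from -0.17 for Psmb1 to 0.21 for Psmd8, with a median of -0.04 and a median standard error of 0.08. Over all tested genes the median was -0.00, and over the 36 members it was -0.03, with 0.01 in the paired fit corrected for length and GC content and 0.00 in the paired fit without the libraries numbered 1. The 95% interval, which covers the spread between libraries as the fit estimates it, lay within 0.32 of 0 on the log2 scale for 27 of the 31 subunit genes, and for 31 of 31 in the paired fit. In that fit the interval bounds of the 31 ran from -0.29 to 0.31. The exceptions without pairing were Psmb1, Psmb4, Psmd11 and Psmd8. Of the 14090 tested genes, 3541 had an interval within 0.32 of 0 without pairing and 6979 when paired. Among the 3947 tested genes averaging 50 CPM or more, the numbers were 1906 and 3239. The median size of the log2 fold change was 0.05 among the 36 members, 0.12 over all tested genes and 0.09 over the 3947 tested genes averaging 50 CPM or more. These medians are descriptions and carry no test.

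**Figure D1:**
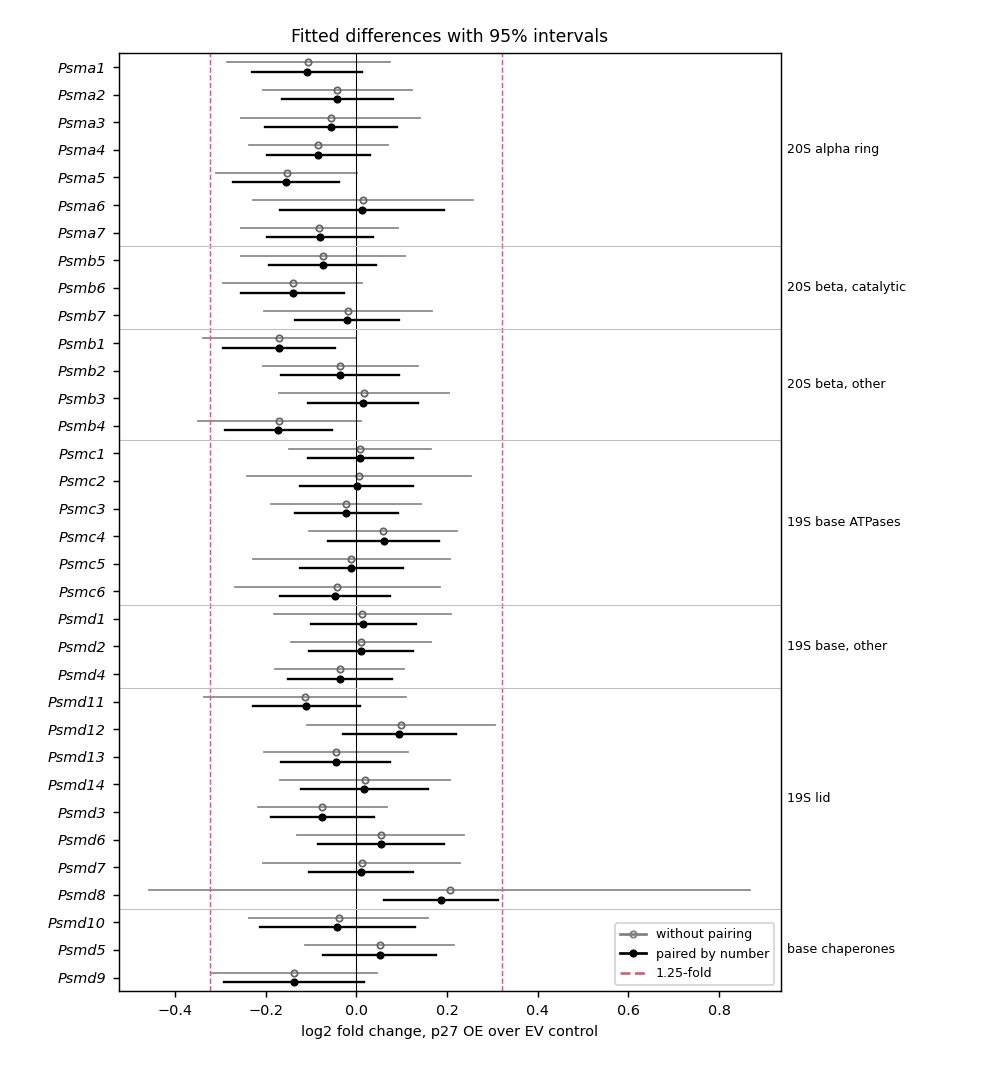
Log2 fold change of 34 proteasome genes (rows, grouped by subcomplex) between p27 OE and EV control, with 95% intervals from edgeR without pairing (grey, open) and paired by library number (black, filled), 3 libraries per group. The dashed lines mark 0.32 on either side of 0. The 31 subunit genes' paired intervals lie between the dashed lines, and the interval of Psmd8 without pairing is the widest.

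Levels per length differed more between subunits than between groups. Lengths are those of the principal transcript in GENCODE, and the scale is CPM per kb. The highest mean over the 6 libraries among the 31 subunit genes was that of Psmd8, a lid subunit, at 206 CPM per kb, followed by the catalytic subunit gene Psmb6 at 153 and the beta subunit gene Psmb4 at 132. The lowest was that of Psmd11, a lid subunit that touches the core, at 31.0 CPM per kb. With the length of all annotated exons in place of the principal transcript, Psmd8 (104) and Psmd11 (13.8) were again the highest and the lowest. Ranks between them changed: Psmb6 was at 65.02, below Psmb5 at 83.7 and Psmd2 at 76.9. The levels by subcomplex given below use the principal transcript, and their order also depends on the length chosen. By principal transcript, the rank of Psmd8 did not hold in EV control 1, where it was at 137 CPM per kb and Psmb6 at 154. In p27 OE 1 Psmd8 was at 144 and Psmb6 at 141. By subcomplex, the median level over genes in the 6 libraries was 71.4 to 83.2 CPM per kb for the alpha ring, 98.5 to 112 for the catalytic beta subunits, 102 to 115 for the other beta subunits, 65.9 to 74.3 for the base ATPases, 77.9 to 82.1 for the other base subunits and 55.4 to 61.7 for the lid. The base chaperone genes Psmd10, Psmd5 and Psmd9 stood below these at 13.99, 13.1 and 12.1 CPM per kb. Psmc3ip was at 2.34 and Psma8 at 0.362 CPM per kb. Psmb11 had 1, 0 and 0 counts across the EV control libraries, against 0, 3 and 2 across the p27 OE libraries, too few for a fold change.

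**Figure D2:**
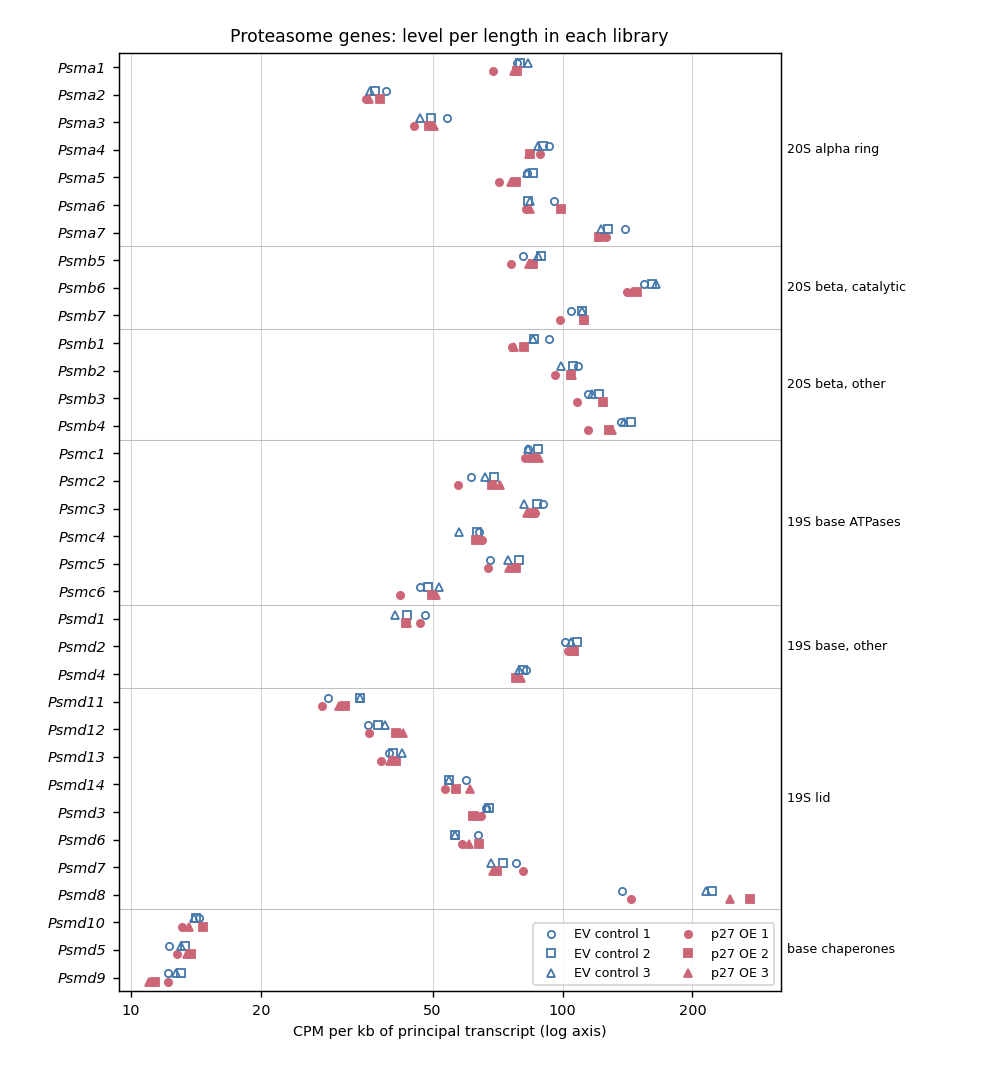
Level of 34 proteasome genes (rows, grouped by subcomplex) in CPM per kb of principal transcript, on a log axis, with 1 point per library (open blue for EV control, filled red for p27 OE, shapes for the library numbers). Points of both groups lie close together in most rows, the libraries numbered 1 (circles) are low for Psmd8, and the base chaperone genes lie far to the left of the subunit genes.

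Reads of overlapping or near-identical genes limit some of these levels. The library kit does not mark strand, and exons of Psma4, Psmb7, Psmc3, Psmd1, Psmd13 and Psmc3ip overlap those of an antisense gene that is in the table. Psmb5 overlaps the microRNA gene Mir686, also in the table, by 109 bases on the same strand. Psmb5, Psmb6 and Psmb7 have processed pseudogenes named after them in GENCODE, none of them in the table, and the handling of reads with several matches is not stated in the sources at hand. Levels of these genes are uncertain to that degree.

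The promoters of 4 subunit genes are shown, those of catalytic subunits and of members with the smallest paired p among the genes with a RefSeq window (Psmb1 and Psmb7 had no match in that table): Psmb5 (chr14:54617996-54618245, reverse strand), Psmb6 (chr11:70525107-70525356, forward strand), Psmb4 (chr3:94886959-94887208, reverse strand) and Psmd8 (chr7:29180674-29180923, reverse strand). Each line holds the 250 bases before the RefSeq transcription start (GRCm38.p6), 5′ to 3′ on the strand of the gene, and capitals mark a match to TGACNNNGC, the core of the antioxidant response element that Nfe2l1 and Nfe2l2 bind together with small Maf proteins.
Psmb5: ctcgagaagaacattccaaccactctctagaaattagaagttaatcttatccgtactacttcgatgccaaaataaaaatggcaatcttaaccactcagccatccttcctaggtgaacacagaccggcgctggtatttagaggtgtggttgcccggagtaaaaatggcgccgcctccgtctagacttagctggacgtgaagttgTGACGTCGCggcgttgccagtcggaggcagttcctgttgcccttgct
Psmb6: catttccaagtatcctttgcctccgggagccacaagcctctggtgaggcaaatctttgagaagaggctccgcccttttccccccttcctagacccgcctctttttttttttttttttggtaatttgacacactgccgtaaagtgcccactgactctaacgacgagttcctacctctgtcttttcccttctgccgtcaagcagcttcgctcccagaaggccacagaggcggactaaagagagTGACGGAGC
Psmb4: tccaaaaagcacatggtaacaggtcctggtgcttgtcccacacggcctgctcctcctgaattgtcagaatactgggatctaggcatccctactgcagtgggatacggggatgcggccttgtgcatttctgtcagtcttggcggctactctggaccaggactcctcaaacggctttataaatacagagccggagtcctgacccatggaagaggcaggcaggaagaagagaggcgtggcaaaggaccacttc
Psmd8: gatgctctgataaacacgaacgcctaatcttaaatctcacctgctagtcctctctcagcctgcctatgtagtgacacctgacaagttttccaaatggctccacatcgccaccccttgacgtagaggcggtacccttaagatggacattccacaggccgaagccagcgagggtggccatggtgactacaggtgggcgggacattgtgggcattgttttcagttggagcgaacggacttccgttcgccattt
Psmb5 held TGACGTCGC and Psmb6 held TGACGGAGC on the strand of the gene, and these windows of Psmb4 and Psmd8 held no match on either strand. RefSeq windows of 250 bases before to 50 after a start were found for 30 of the 37 members, 32 windows in all. Searched on both strands, TGACNNNGC occurred in 5 of the 32 windows (15.6%), those of Psmb5, Psmb6, Psmc6, Psmd9 and Psmd12, against 12.4% of 32851 windows of all genes. CCAAT, the box that NF-Y binds, occurred in 13 of 32 (40.6%) against 37.4%. Neither motif contains the other, and a match is a description of sequence, not a binding site.

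The 3 catalytic subunit genes did not pass the test. Psmb5, whose product cuts after hydrophobic residues, read 72.8, 79.9 and 78.7 CPM across the EV control libraries, against 68.1, 76.7 and 75.0 CPM across the p27 OE libraries. The groups overlapped, and the log2 fold change with its SE came to -0.07 ± 0.08 (3 libraries a group; edgeR adjusted p 0.891). When paired it was -0.07, and -0.0016 with the correction for length and GC content. Psmb6, the subunit that cuts after acidic residues, read 123, 128 and 132 CPM across the EV control libraries, against 113, 119 and 116 CPM across the p27 OE libraries. Each p27 OE library lay below each control library, with a log2 fold change of -0.14 ± 0.06 (edgeR adjusted p 0.691, and 0.123 when paired). The correction for length and GC content brought the paired value from -0.14 to -0.07 (edgeR adjusted p 0.422). Psmb7 (chr2:38588036-38644087 in GENCODE, GRCm38), which cuts after basic residues, read 121, 129 and 129 CPM across the EV control libraries, against 114, 129.8 and 129.7 CPM across the p27 OE libraries, with overlapping groups. Its log2 fold change was -0.02 ± 0.08 (edgeR adjusted p 0.984), its 95% interval was -0.20 to 0.17, and its sign turned without p27 OE 1 (0.04).

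Of the core genes, Psmb4, Psmb1 and Psma5 had the smallest p when paired, and they were not called either. Psmb4, a beta ring subunit without an active site, read 161, 170.1 and 164 CPM across the EV control libraries, against 135, 151 and 154 CPM across the p27 OE libraries. Psmb1 (chr17:15475021-15499751 in GENCODE, GRCm38), another such subunit, read 164, 151 and 150.5 CPM across the EV control libraries, against 134, 143 and 135 CPM across the p27 OE libraries. Psma5 (chr3:108256926-108279974), of the alpha ring, read 103, 106 and 102 CPM across the EV control libraries, against 88.4, 96.5 and 94.3 CPM across the p27 OE libraries. In these genes no p27 OE library reached the lowest control, and p27 OE 1 was the lowest of the 6 libraries. The log2 fold change was -0.17 ± 0.08 for Psmb4 (edgeR adjusted p 0.687, paired 0.0731), -0.17 ± 0.07 for Psmb1 (0.685, paired 0.0874) and -0.15 ± 0.07 for Psma5 (0.685, paired 0.0974). Psmb4 was called lower in the paired fit with upper-quartile scaling (-0.19, edgeR adjusted p 0.0430, where 8.65% of tested genes were called), and Psmb1 in the paired fit with a correction for length and GC content (-0.17, edgeR adjusted p 0.0374, where 8.73% were called).

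Over the whole group, 7 of the 36 tested members (19.4%) had groups that did not overlap with p27 OE lower, against 8.28% of all tested genes, and 0 of 36 with p27 OE higher, against 6.61%. Besides the 4 named above they were Psma1 of the alpha ring, the lid gene Psmd3 and the base chaperone gene Psmd9, all 3 named after their values were seen. Members lower in each of the 3 pairs numbered 11 (30.6%, against 23.7% of tested genes), and those higher in each pair numbered 3 (8.33%, against 21.8%): Psmd5, Psmd8 and Psmd12, the last a lid subunit gene with a log2 fold change of 0.10 ± 0.09. The other 22 moved in different directions in different pairs. The set was not tested, and these shares are counts beside a background.

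By pair of same-numbered libraries, the members' ratios differed. In the pair numbered 1, 29 of 36 members were lower in p27 OE, where 51.4% of tested genes were, and the median log2 ratio was -0.08. In the pair numbered 2 it was 23 of 36 (background 50.8%) with a median of -0.02, and in the pair numbered 3 it was 15 of 36 (background 50.3%) with a median of 0.01. For the 14 core genes, 14 of 14, 10 of 14 and 9 of 14 were lower in pairs 1, 2 and 3, with medians of -0.16, -0.04 and -0.04. For the 17 genes of the regulatory particle the numbers were 12, 11 and 4 of 17, with medians of -0.04, -0.01 and 0.03. The alpha ring ran from a median of -0.19 in pair 1 to -0.03 in pair 2 and -0.02 in pair 3.

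**Figure D3:**
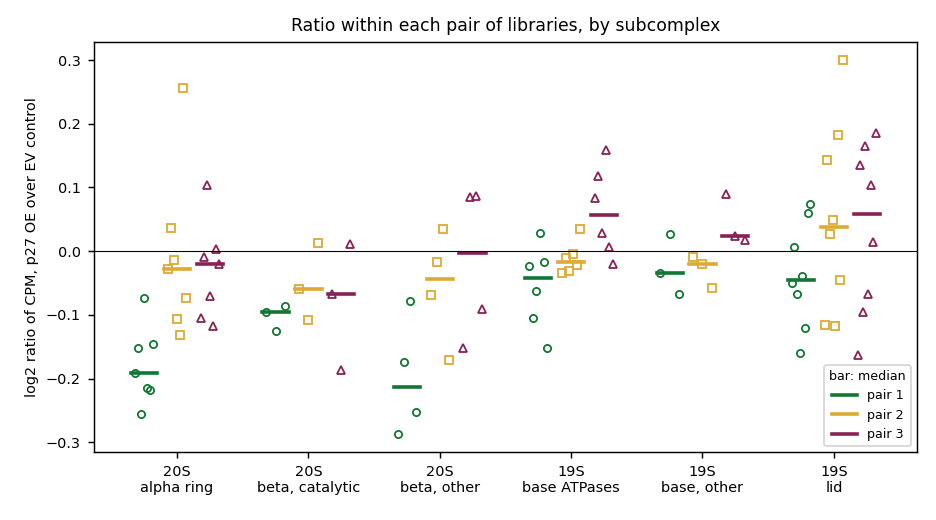
Log2 ratio of CPM, p27 OE over EV control, within each pair of same-numbered libraries for the 31 subunit genes by subcomplex (1 point per gene, bar at the median; green circles pair 1, yellow squares pair 2, purple triangles pair 3). Each of the 14 core genes lies below 0 in pair 1, and genes of the base and lid lie on both sides of 0.

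Core and regulatory particle genes had different medians, a comparison made after the values were seen and not tested. The median log2 fold change was -0.08 for the 14 core genes and 0.01 for the 17 genes of the regulatory particle. Summed over its 14 genes, the core read 1623, 1599.6 and 1569 CPM across the EV control libraries, against 1436, 1557 and 1524 CPM across the p27 OE libraries. Each p27 OE library was below each control library. The regulatory particle without Psmd8 read 1907, 1943 and 1891 CPM across the EV control libraries, against 1857, 1926 and 1936 CPM across the p27 OE libraries, with overlapping groups. The ratio of these sums was 1.198 ± 0.0204 in EV control and 1.27 ± 0.0281 in p27 OE (mean ± SD, n = 3), and lay at 1.18 to 1.21 and 1.24 to 1.29. With Psmd8 it was 1.31 to 1.43 and 1.45 to 1.52. The gap between the medians of particle and core was 0.09 without pairing and between 0.05 and 0.09 in the 22 other settings, the smallest of them without EV control 1. Core transcripts are shorter, with a median of 1163 bases against 1636 for the particle and 3014 for all tested genes. In the paired fit corrected for length and GC content the medians were -0.05 and 0.02, and the gap was 0.07.

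**Figure D4:**
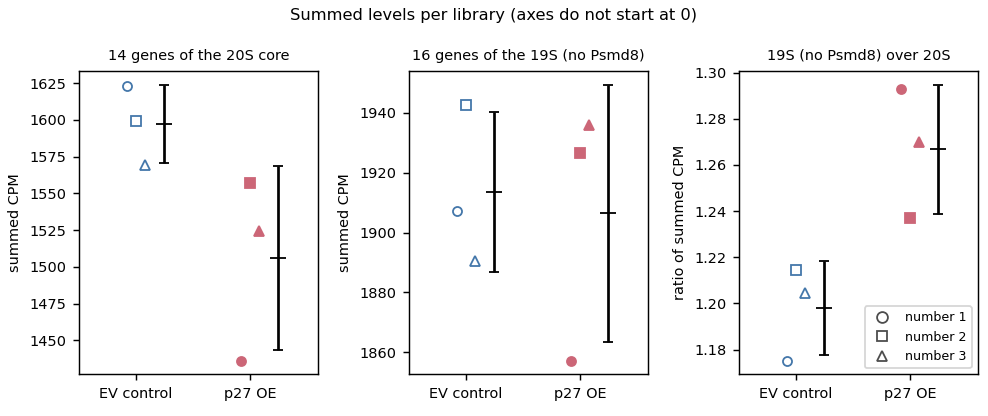
Summed CPM per library of the 14 core genes (left) and of 16 regulatory particle genes without Psmd8 (middle), and the ratio of these sums (right), for EV control (open blue) and p27 OE (filled red), with shapes for the library numbers and mean ± SD (n = 3) in black. The axes do not start at 0. No p27 OE point reaches the control points in the left panel (lower) or the right one (higher), and p27 OE 1 lies farthest from the controls in both.

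In the base of the regulatory particle, 0 of 9 genes had an unadjusted p under 0.05 in either edgeR fit. Over all tested genes the shares were 7.22% without pairing and 23.9% when paired. The log2 fold changes of the 6 ATPase genes ran from -0.04 for Psmc6 to 0.06 for Psmc4, and the paired intervals of the 6 from -0.17 to 0.18. The scaffold genes Psmd1 and Psmd2 differed by 0.01 each and Psmd4, the gene of a ubiquitin receptor, by -0.04. Psmd2 had the highest level per length of the 9, 105 CPM per kb, and read 299.5, 319 and 309 CPM across the EV control libraries, against 305, 315 and 314 CPM across the p27 OE libraries, with overlapping groups. Psmd2 is named here after its values were seen.

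In the lid, Psmd8 had the largest positive value of the subunit genes. It read 211, 341 and 331 CPM across the EV control libraries, against 222, 420 and 377 CPM across the p27 OE libraries. The libraries numbered 1 were lower than the other 4 in both groups, and the groups overlapped. Without pairing the log2 fold change was 0.21 ± 0.28 (edgeR adjusted p 0.934), and when paired it was 0.19 ± 0.06 (0.0678). Single libraries moved the unpaired value, to 0.0139 without EV control 1, 0.0295 without p27 OE 2, 0.12 without p27 OE 3, 0.32 without EV control 2 and 0.43 without p27 OE 1. The paired ratio was 0.07, 0.30 and 0.19 in pairs 1, 2 and 3. Psmd8 was called higher in the paired fit without the libraries numbered 1 (0.24, edgeR adjusted p 0.00783, where 12.4% of tested genes were called) and in the paired fit corrected for length and GC content (0.22, 0.0120, where 8.73% were called). The edgeR adjusted p was 0.305 and 0.323 without the libraries numbered 2 or 3.

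Psmd11 (chr11:80428615-80473248) read 81.6, 96.6 and 96.6 CPM across the EV control libraries, against 78.8, 89.1 and 86.3 CPM across the p27 OE libraries. The groups overlapped through EV control 1, and the log2 fold change was -0.11 ± 0.09 (edgeR adjusted p 0.858), with -0.06 to -0.19 when a single library was left out (without p27 OE 1 and without EV control 1). Psmd14, the gene of the enzyme that cleaves off the ubiquitin chain, differed by 0.02 and Psmd7, its partner in the lid, by 0.01. Psmd3, Psmd6, Psmd12 and Psmd13 lay between -0.07 and 0.10. The base chaperone genes Psmd5, Psmd9 and Psmd10 differed by 0.05, -0.14 and -0.04.

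Around the proteasome, 41 partner, regulator and ubiquitin genes were looked up in the table. Without pairing edgeR called 0 of them, with 0 at an unadjusted p under 0.05 (7.22% of tested genes), and DESeq2 and limma-voom also called 0. Unadjusted, the paired edgeR fit gave 4 higher (9.76%, against 11.9% of tested genes) and 3 lower (7.32%, against 12%). The paired edgeR fit called 1 higher and 1 lower, 4.88% of the 41 against 7.43% of tested genes. The lower one was Psme1, a subunit of the cap that opens the core without ATP and is known as interferon-inducible. It read 74.4, 57.5 and 55.9 CPM across the EV control libraries, against 54.4, 51.3 and 48.7 CPM across the p27 OE libraries, without overlap. Its log2 fold change was -0.28 ± 0.12 without pairing (edgeR adjusted p 0.685) and -0.27 ± 0.07 when paired (0.0274), and the paired call was lost without the libraries numbered 1 (-0.18, 0.0803) or 3 (-0.31, 0.0820). Without EV control 1 the unpaired value was -0.14. Its partner Psme2 differed by -0.09 when paired (edgeR adjusted p 0.383), Psme3 of the nuclear cap by 0.09 (0.317), and Psme4 and the inhibitor gene Psmf1 were not called either.

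The higher one was Uba6, the gene of another enzyme that activates ubiquitin. It read 37.2, 69.3 and 75.8 CPM across the EV control libraries, against 50.9, 96.5 and 97.7 CPM across the p27 OE libraries. The libraries numbered 1 were lowest in both groups, and within each pair p27 OE was higher. The log2 fold change was 0.43 ± 0.34 without pairing (edgeR adjusted p 0.847) and 0.43 ± 0.06 when paired (0.000908), and Uba6 remained called in the paired fits without the libraries of any number. The unpaired value ran from 0.17 without EV control 1 to 0.68 without p27 OE 1. Uba1, the main activating enzyme gene, differed by 0.04. Rps27a, a gene of ubiquitin fused to a ribosomal protein, differed by -0.20 ± 0.06 when paired (edgeR adjusted p 0.0654). It was called lower in the paired fit without libraries numbered 2 (-0.27, edgeR adjusted p 0.00593, where 928 of 14319 genes were called). With upper-quartile scaling the paired fit also called it lower (-0.22, edgeR adjusted p 0.0338, where 8.65% of tested genes were called).

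The transcription factor gene Nfe2l1 was not called. It read 398, 642 and 669 CPM across the EV control libraries, against 431, 795 and 706 CPM across the p27 OE libraries, low in the libraries numbered 1, with overlapping groups. Its log2 fold change was 0.18 ± 0.28 without pairing (edgeR adjusted p 0.952) and 0.17 ± 0.06 when paired (0.111), and without EV control 1 it was -0.03 unpaired. Mafk, a small Maf partner, differed by 0.21 ± 0.07 when paired (edgeR adjusted p 0.102), and by -0.01 without EV control 1 unpaired. The 11 genes on this list had a median log2 fold change of 0.12 without pairing. In either edgeR fit 0 were called, where 0% of tested genes were called without pairing and 7.43% when paired. At an unadjusted paired p under 0.05, 3 were higher (27.3%, against 11.9% of tested genes) and 0 lower (against 12%). Higher in each pair were 6 (54.5%, against 21.8%) and lower in each 1 (9.09%, against 23.7%), and the list was not tested. The subunit genes outside the naming rule, Shfm1 of the lid and the ubiquitin receptor gene Adrm1, differed by -0.12 ± 0.10 and -0.06 ± 0.07. The 3 immunoproteasome genes were not called: Psmb8 was at 6.46 ± 0.807 and 5.64 ± 1.3 CPM (EV control and p27 OE, mean ± SD, n = 3), Psmb10 at 11.9 ± 1.53 and 11.4 ± 2.02 CPM with a sign that turned without EV control 1 or p27 OE 3, and Psmb9 at 0.548 to 1.07 CPM. None of 5 assembly chaperone genes was called in either edgeR fit (0% and 7.43% of tested genes), with Psmg1 at -0.12 ± 0.11 and Psmg4 at -0.08 ± 0.11. Nor was any of 10 genes of proteasome-bound deubiquitinases, ligases and shuttles, where the deubiquitinase gene Uchl5 differed by -0.17 ± 0.10. Akirin2, whose product brings proteasomes into the nucleus, differed by -0.10 ± 0.14, and by 0.02 without p27 OE 1.

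**Figure D5:**
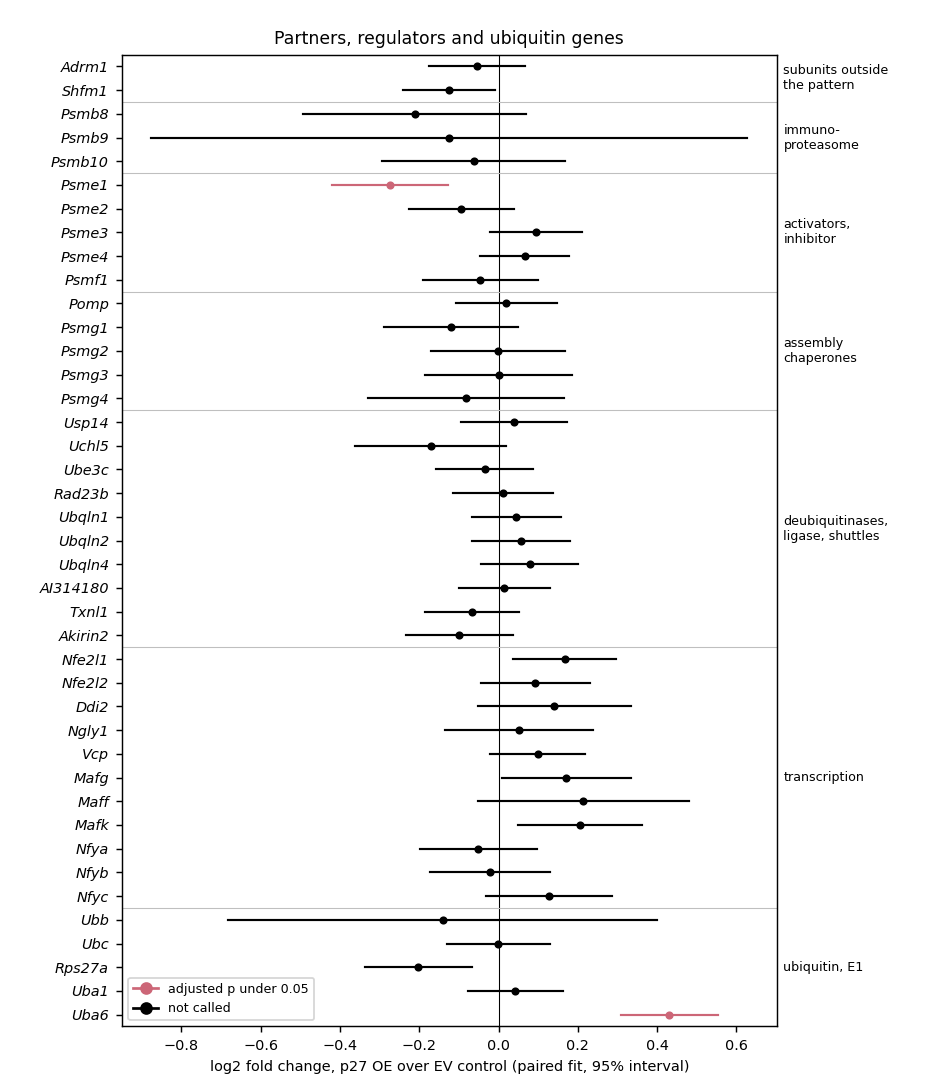
Log2 fold change (p27 OE over EV control) of 41 partner, regulator and ubiquitin genes in the edgeR fit paired by library number, with 95% intervals (3 pairs), red where the adjusted p is under 0.05. Psme1 lies below 0 and Uba6 above it, and the other 39 were not called.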

How the data were processed

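Per the labels' protocols, 100 to 200 ng of column-purified RNA from mouse embryonic fibroblasts went into each TruSeq (v2) library. This kit does not mark strand. The authors deposited raw counts per gene symbol, 1 column per library, 3 in each group. The build mm10 and the tools Subread, featureCounts (1.4.6), Bowtie2 (2.2.6) and TopHat2 (2.0.14) are named in the submitters' processing notes, without their roles. The annotation and strand setting of the counting were not found in these sources. No row lacked a gene name and 0 columns were unmapped. Libraries were grouped and numbered by title, and replicates differed by more than sampling noise (chi-square per gene at least 8.36).

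Counts were filtered with filterByExpr (minimum count 10, minimum total 15), scaled by TMM and tested with edgeR 4.0.16 (quasi-likelihood, robust, two-sided, Benjamini-Hochberg over 14090 genes, threshold 0.05) in R 4.3.3. Standard errors come from the F statistic, and 95% intervals from it and the fit's degrees of freedom. The planned fit had no pairing. Deviations from the group means correlated at 0.77, 0.42 and 0.54 between libraries numbered 1, 2 and 3. A paired fit, also planned, is given where it changes a call. The pairing rests on the numbers in the titles, and for 2 and 3 other pairings correlated about as well (0.41 and 0.39). Deviations cancel within a group, so when the libraries numbered 1 lie apart, those numbered 2 and 3 deviate alike. The values for 2 and 3 therefore do not show which libraries pair. Over the 36 members alone, EV control 3 and p27 OE 3 correlated at 0.28, below EV control 2 with p27 OE 3 (0.74) and EV control 3 with p27 OE 2 (0.58). DESeq2 1.42.0, limma-voom (limma 3.58.1), other scalings and filters, a length and GC correction (loess, span 0.3, over 13455 tested genes with a GENCODE value) and omitted libraries were alternatives. Single values got no exact permutation test, whose p cannot fall below 0.1 with 3 libraries a group. The edgeR, limma-voom and DESeq2 fits, with and without pairing, were tested on simulated counts.

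Members, lists and motifs were chosen with earlier results of these data known. Named genes are the catalytic subunits, the 6 members with the smallest paired p (since fewer than 6 were called), the extremes of fold change and of level per length, and from each related list the called genes and the 2 with the smallest p. Lengths and positions are from GENCODE (GRCm38, which mm10 names), matched for 37 members by symbol; promoters are from RefSeq. Some genes of the related lists are not reported here.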

Additional observations from a re-analysis of the deposited data

How the results depend on the processing

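The count of called genes over the whole table depended on the fit. edgeR without pairing called 0, and 1 with no filter, DESeq2 89, and the fits without a single library 0 to 1. With pairing (the replicate number as a block) edgeR called 1047 (535 higher, 512 lower), with RLE scaling 1042, upper-quartile scaling 1219 (483 higher, 736 lower), the 1 CPM filter 1018 and the length and GC correction 1174. Paired DESeq2 called 830 and limma-voom 829, and leaving out both libraries numbered 1, 2 or 3 gave 1741, 928 and 330. The proteasome subunit genes called were 0 in each of these fits except 3 paired ones: 1 with upper-quartile scaling (Psmb4), 2 with the length and GC correction (Psmb1 and Psmd8), and 1 without the libraries numbered 1 (Psmd8), so that omissions gave 0 to 1. Leaving out Psmc3ip, Psma8 and Psmb11 also gave 0. The partner and regulator genes called were 0 without pairing. With pairing they were 2 in edgeR, 2 with RLE scaling, 3 with upper-quartile scaling, and 2 each with DESeq2, limma-voom, the 1 CPM filter and the length and GC correction. Omissions gave 0 to 3. The median log2 fold change of the members moved by less than the spread over pairs (SD 0.05) in every setting, and omissions gave -0.06 to 0.00. Signs changed for some named genes, among them Mafk (0.20) and Nfe2l1 (0.18). Psmb7 was at 0.0117 in the paired fit without the libraries numbered 1 and 0.0138 in the paired fit with the length and GC correction, under which Adrm1 was at 0.0298. Fits without a single library gave -0.0501 to 0.0393 for Psmb7 (highest without p27 OE 1), -0.159 to 0.0799 for Psmb10 (0.0541 without EV control 1), -0.19 to 0.0161 for Akirin2 (highest without p27 OE 1), -0.013 to 0.398 for Mafk and -0.027 to 0.397 for Nfe2l1 (lowest without EV control 1). Psmb10 was at 0.0032 in the paired fit without the libraries numbered 3. The cause of these shifts was not tested. Fits without both libraries of a number rest on 2 pairs. With 3 libraries per group, a gene that was not called may still differ by an amount within its interval.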

Other observations

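Some proteasome genes differed between library numbers. On the log2 scale of CPM, Psmd8 in the library numbered 1 differed from the mean of those numbered 2 and 3 by -0.67 in EV control and -0.84 in p27 OE. Psmc3ip, the recombination factor gene, read 4.32, 2.35 and 2.18 CPM across the EV control libraries, against 4.48, 2.09 and 2.70 CPM across the p27 OE libraries, in the order of their numbers, and its library numbered 1 was higher by 0.93 and 0.92. Apart from these and Psma8, whose counts were 21 to 29 per library, no tested member differed by more than 0.24 in EV control or 0.30 in p27 OE. The median size of this difference was 0.10 and 0.12 over the 36 tested members and 0.23 and 0.24 over all tested genes. Among the partner and regulator genes, Uba6 differed by -0.96 and -0.93, Mafk by -0.76 and -0.69 and Nfe2l1 by -0.72 and -0.80. These differences rest on 1 library per group and number and carry no test.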
